A study of Mus musculus with 6 samples.

Results

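Motile cilium genes were taken by name from an RNA-seq count table of mouse aorta. The set holds every protein-coding gene whose name begins with Dnah, Dnai, Cfap, Rsph or Tekt, together with the regulators Foxj1 and Mcidas. These rules gave 70 genes of the 21970 protein-coding genes and 56748 genes in the table: 36 Cfap, 15 Dnah, 4 Dnai, 8 Rsph and 5 Tekt genes and the 2 regulators. The set was proposed because 1 library, sST2-KO replicate 2, was already known to hold airway RNA, so the genes were chosen by measured values, and their levels in that library are given as a description, with no test. The genes were then divided by their median level in the other 5 aortas, below or above a limit.

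The study sequenced aortas of apolipoprotein E-deficient mice (ApoE-KO), aged 6 months, that had carried osmotic minipumps delivering angiotensin II (AngII) for 28 days. The groups were sST2-KO littermates (3 libraries) and WT littermates (3 libraries); the ApoE deficiency, the hormone and its duration were common to both, and no aorta without AngII was analysed here. sST2 is the soluble form of the interleukin-33 receptor ST2, and both forms are products of the gene Il1rl1. Nothing in the labels said how many animals gave each library, so p-values measure the spread between these libraries.

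The libraries held 17988552, 17785126 and 15615658 counts in sST2-KO replicates 1 to 3 and 16740787, 16088057 and 16163727 counts in WT replicates 1 to 3. Levels are given as CPM, the counts scaled to a common library size by the TMM method. A count of 0 allowed up to 3 counts, equal to 0.148 to 0.239 CPM depending on the library, and such limits cover counting error only. Il1rl1 was at 2.39, 2.82 and 4.86 CPM in the sST2-KO libraries, against 2.81, 9.49 and 4.35 CPM in the WT libraries, and the groups overlapped; the gene-level count adds the soluble and membrane forms, so it does not check the deletion. WT replicate 3 stood apart through liver transcripts, with a summed level of 10 hepatocyte markers of 8350 CPM, against 0.827 to 5.58 CPM in the other libraries. Transcripts of Apoe were at 172, 86.7 and 145.5 CPM in the sST2-KO libraries and at 15.1, 11.6 and 507 CPM in the WT libraries. Aortic smooth muscle markers, among them Myh11 and Acta2, summed to 6294, 7512 and 12560 CPM in the sST2-KO libraries and 3815, 10870 and 5561 CPM in the WT libraries. These genes are also expressed in airway muscle, and the sum does not separate the tissues. Endothelial markers summed to 2164, 816 and 1702 CPM in the sST2-KO libraries and 1301, 1059 and 1169 CPM in the WT libraries, lowest in sST2-KO replicate 2.

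A motile cilium beats because axonemal dyneins, anchored on outer doublet microtubules, walk along the neighbouring doublet. Outer dynein arms drive the beat, inner arms shape it, and radial spokes carry mechanical signals between the central apparatus and the arms. Tektins and other inner proteins stiffen the doublets from within. In the airway these cilia stand in large numbers on multiciliated epithelial cells, where MCIDAS starts the multiciliated programme and FOXJ1 switches on the genes of the motile axoneme. Vascular cells carry at most a single primary cilium, a sensory organelle that lacks dynein arms, spokes and central apparatus, but shares with motile cilia the intraflagellar transport that builds both.

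Motile cilium genes made up 0.435% of all counts in sST2-KO replicate 2 (95% exact binomial interval 0.432 to 0.4385%, for counting error only), against 0.0191% and 0.0188% in sST2-KO replicates 1 and 3 and 0.0201%, 0.0151% and 0.0194% in WT replicates 1 to 3. A gene was placed in the low-aorta class where it reached 1 CPM in sST2-KO replicate 2 and had a median under 1 CPM over the other 5 libraries, and in the aorta-expressed class where that median was at least 1 CPM. There were 41 genes in the first class (58.57%), 26 in the second (37.14%) and 3 under 1 CPM in both (4.286%). Since the limit was set on the median, 10 of the 41 low-aorta genes reached 1 CPM in at least 1 other library, with 2.13 CPM (Dnah3 in sST2-KO replicate 3) the highest such level. Over all protein-coding genes the same limits gave 5.448%, 60.7% and 33.86%. Because the set was chosen on sST2-KO replicate 2, nothing is read from the difference between these shares.

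The 41 genes of the first class summed to 2376 CPM (48018 counts) in sST2-KO replicate 2, against 9.49 and 12.0 CPM (167 and 180 counts) in sST2-KO replicates 1 and 3 and 8.88, 11.3 and 12.7 CPM (161, 142 and 213 counts) in WT replicates 1 to 3. The sum in sST2-KO replicate 2 was 187.1 times that of the highest other library, and the other 5 libraries lay close together, with both genotypes among them. The 26 aorta-expressed genes summed to 1456 CPM in sST2-KO replicate 2, against 185.5 and 183.1 CPM in sST2-KO replicates 1 and 3 and 176.8, 181.1 and 174.5 CPM in the WT libraries.

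**Figure D1:**
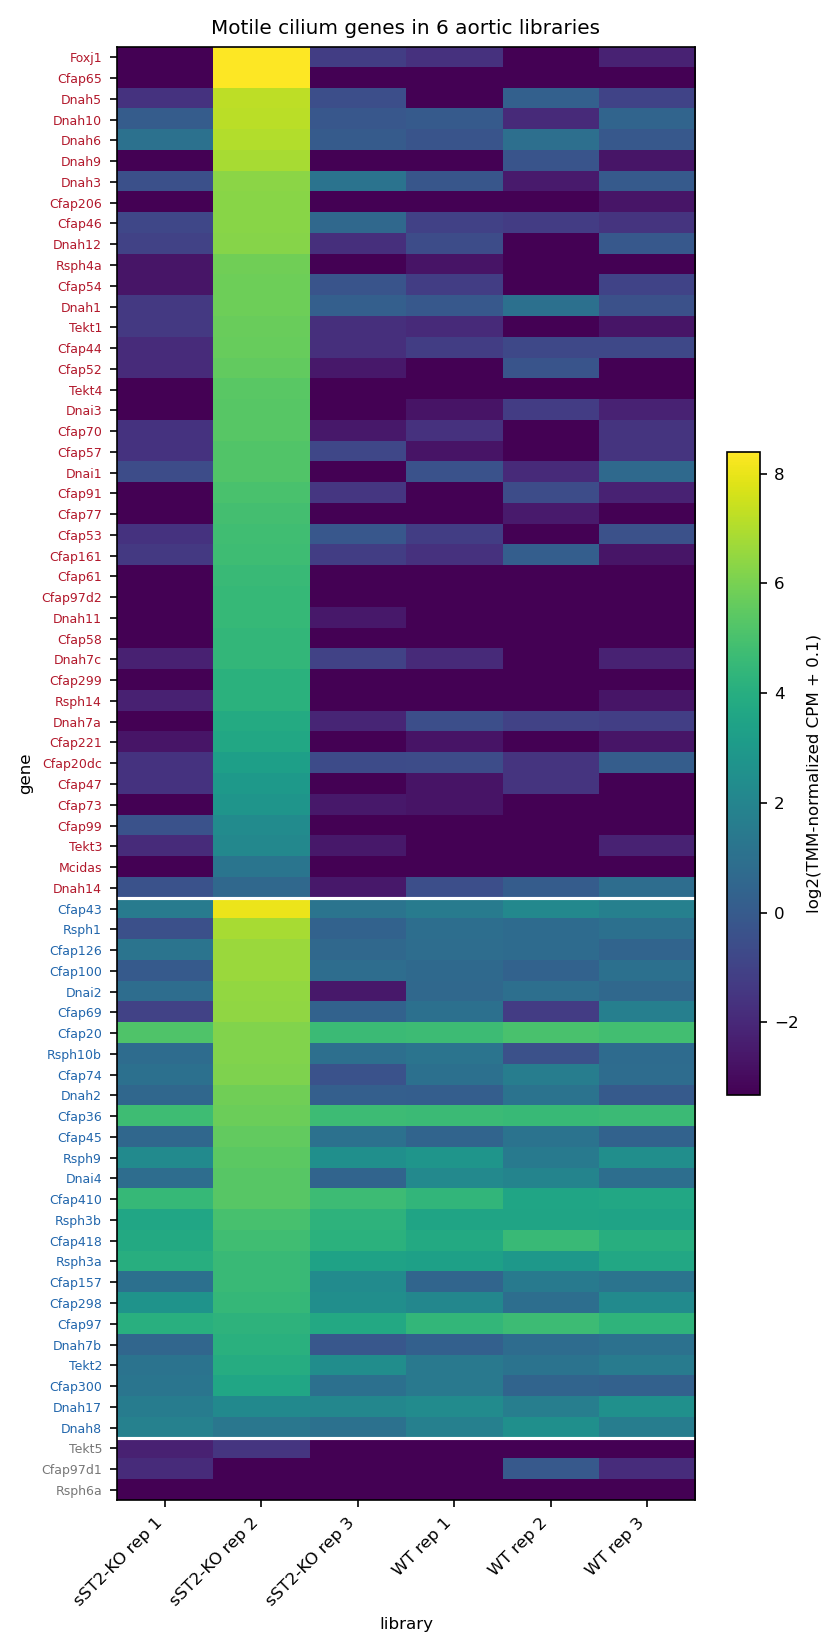
Level of each of the 70 motile cilium genes (rows) in each library (columns), as log2(TMM-normalized CPM + 0.1). Gene names in red mark the 41 genes at 1 CPM or more in sST2-KO replicate 2 with a median under 1 CPM in the other 5 libraries, in blue the 26 genes expressed in the other 5 libraries, and in grey the 3 low genes. The column of sST2-KO replicate 2 is bright through nearly the whole red block, where the other 5 columns are dark.

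Of the 70 genes, 64 were higher in sST2-KO replicate 2 than in every other library. The share of all genes that did so was not computed, and nothing is read from that count. In 47 of the 70 the level was at least 10-fold above the highest other library. This rule required at least 1 CPM in sST2-KO replicate 2 and took the 3-count limit of 0.239 CPM as the lowest comparator. The same 10-fold rule held for 739 of 18096 genes that reached 1 CPM in any library, or 4.08%. The 41 low-aorta genes were at 1.435 to 336 CPM in sST2-KO replicate 2 (median 36.8), with a median ratio of 75.1, and 37 of them passed the 10-fold limit. In the aorta-expressed class, 10 of 26 passed. The remaining 16 had a median ratio of 2.045.

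The division at 1 CPM ran through a continuum. Just under it in the other 5 libraries were Dnah1 (median 0.827 CPM), Dnah10 (0.882) and Dnah6 (0.931), and just over it were Dnah2 (1.06), Cfap69 (1.20) and Dnah7b (1.36). These 6 genes reached 17.5 to 144 CPM in sST2-KO replicate 2, on both sides of the limit. At the limit for sST2-KO replicate 2 itself, Dnah14 (1.435 CPM), Mcidas (2.23) and Tekt3 (4.31) lay just inside, and Tekt5 (0.247), Rsph6a (0) and Cfap97d1 (0) outside.

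**Figure D2:**
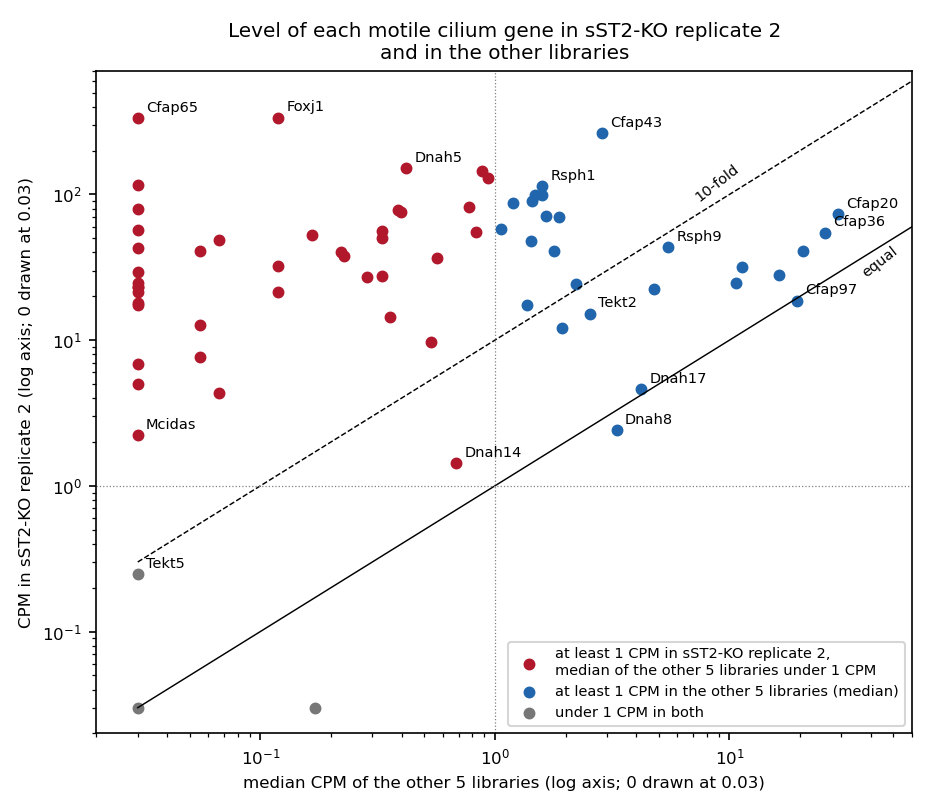
CPM of each gene in sST2-KO replicate 2 (vertical log axis) against its median CPM in the other 5 libraries (horizontal log axis), with values of 0 drawn at 0.03. The solid line marks equal levels, the dashed line a 10-fold difference and the dotted lines 1 CPM. Most red points lie far above the dashed line, whereas the blue points run from genes above the dashed line, such as Rsph1 and Cfap43, to genes near the solid line, such as Cfap97, Dnah17 and Dnah8.

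The regulators stood at opposite ends of abundance. Foxj1, the transcription factor of the motile cilium programme (chr11:116221530-116226225, mm39, minus strand), had 6791 counts in sST2-KO replicate 2, against 0 and 5 counts in sST2-KO replicates 1 and 3 and 4, 0 and 2 counts in WT replicates 1 to 3. Its level of 336 CPM was 1010 times the highest other level of 0.333 CPM. Mcidas, the coiled-coil protein that starts multiciliated differentiation, had 45 counts (2.23 CPM) in sST2-KO replicate 2 and 0 counts in every other library, at least 9.31-fold higher than the 3-count limit. Per kb of gene model, the Foxj1 level was 136.8 times that of Mcidas in sST2-KO replicate 2 (128 and 0.937 CPM per kb).

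Outer dynein arm genes were all more than 10-fold above the other libraries. Dnah5, the gamma-type heavy chain found in every outer arm of the airway axoneme, had 3048 counts in sST2-KO replicate 2, against 4 and 9 counts in sST2-KO replicates 1 and 3 and 0, 14 and 7 counts in the WT libraries. Its beta-type partners are exchanged along the axoneme, with DNAH11 known from human airway cilia to sit near the base and DNAH9 towards the tip. Dnah9 had 2331 counts in sST2-KO replicate 2, against 0 and 0 counts in sST2-KO replicates 1 and 3 and 0, 9 and 1 counts in WT replicates 1 to 3. Dnah11 had 469 counts in sST2-KO replicate 2 and a single count in the 5 others together, in sST2-KO replicate 3. Neither beta-type chain exceeded 9 counts outside sST2-KO replicate 2.

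In that library, Dnah5 was at 9.645 CPM per kb and the summed level of Dnah9 and Dnah11 at 8.84 CPM per kb, a ratio of 1.09; Dnah9 alone was 4.51 times Dnah11. The intermediate chains Dnai1 and Dnai2, which hold the outer arm complex together, were at 13.2 and 19.6 CPM per kb. Dnai2 belonged to the aorta-expressed class, with 89.5 CPM in sST2-KO replicate 2, against 1.70 and 0.0665 CPM in sST2-KO replicates 1 and 3 and 1.43, 1.83 and 1.43 CPM in the WT libraries. Dnai1 had 743 counts in sST2-KO replicate 2, against 10 and 0 counts in sST2-KO replicates 1 and 3 and 12, 2 and 25 counts in the WT libraries.

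The heavy chains that build outer arms in sperm flagella behaved otherwise. Dnah8 had 49 counts in sST2-KO replicate 2, against 60 and 30 counts in sST2-KO replicates 1 and 3 and 60, 70 and 50 counts in the WT libraries. Dnah17 had 93 counts in sST2-KO replicate 2, against 52 and 63 counts in sST2-KO replicates 1 and 3 and 89, 39 and 97 counts in the WT libraries. In both, sST2-KO replicate 2 lay inside the range of the rest. Each gene overlaps a more abundant gene on the opposite strand, Glo1 (569 to 1096 counts per library) for Dnah8 and Pgs1 (265 to 814 counts) for Dnah17, and the library protocol described no step that marks strand. The overlap was taken over whole gene spans, introns included, and shared exons were not examined. Without strand, reads from any shared exon cannot be told apart. Of 12 sperm and spermatid markers, 9 had no count in sST2-KO replicate 2, among them Prm1, and the list summed to 1.98 CPM there, against 1.43 to 4.32 CPM in the other libraries.

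Inner dynein arm genes had a median of 5.57 CPM per kb in sST2-KO replicate 2, and 9 of 11 were past the 10-fold limit. Dnah10 and Dnah2 encode the paired heavy chains of the double-headed inner arm. Dnah10 had 2913 counts in sST2-KO replicate 2, against 17 and 12 counts in sST2-KO replicates 1 and 3 and 16, 2 and 21 counts in the WT libraries. Dnah2 had 1175 counts in sST2-KO replicate 2, against 25 and 16 counts in sST2-KO replicates 1 and 3 and 19, 26 and 15 counts in the WT libraries. Although both serve 1 arm, their levels of 8.96 and 3.88 CPM per kb differed 2.31-fold in that library.

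Among the single-headed inner arm chains, Dnah6 was at 9.82, Dnah12 at 6.33, Dnah3 at 5.75 and Dnah1 at 4.22 CPM per kb in sST2-KO replicate 2. Dnah7a, Dnah7b and Dnah7c were lower, at 1.13, 0.874 and 1.69 CPM per kb, and 3.69 CPM per kb in sum. These are near-identical copies, so the division of reads among them is uncertain. The intermediate chains Dnai3 and Dnai4 were at 12.3 and 5.57 CPM per kb. Dnai4 had 823 counts in sST2-KO replicate 2, against 30 and 19 counts in sST2-KO replicates 1 and 3 and 80, 48 and 30 counts in the WT libraries, and so fell just short of the limit. It overlaps Mier1 on the opposite strand.

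Radial spoke genes divided most evenly, with 5 of 11 in the low-aorta class, 5 aorta-expressed and 1 low. Rsph1, a spoke head protein, was the most abundant member per length after Foxj1, at 83.5 CPM per kb. It had 2316 counts in sST2-KO replicate 2, against 11 and 18 counts in sST2-KO replicates 1 and 3 and 32, 20 and 32 counts in the WT libraries. Rsph4a, the spoke head subunit of airway cilia, had 1160 counts in sST2-KO replicate 2, against 1 and 0 counts in sST2-KO replicates 1 and 3 and 1, 0 and 0 counts in the WT libraries. Its testis counterpart Rsph6a had 0 counts in all 6 libraries, which allows up to 0.148 CPM in sST2-KO replicate 2. The airway form of the spoke head was thus seen in sST2-KO replicate 2 and the testis form was not detectable at this depth.

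The spoke stalk genes Rsph3a and Rsph3b were expressed in every aorta. Rsph3a was at 24.6 CPM in sST2-KO replicate 2, against 16.1 and 10.6 CPM in sST2-KO replicates 1 and 3 and 9.87, 7.49 and 13.1 CPM in the WT libraries. Rsph3b was at 31.9 CPM in sST2-KO replicate 2, against 12.2 and 19.1 CPM in sST2-KO replicates 1 and 3 and 11.2, 11.3 and 10.9 CPM in the WT libraries. The pair are paralogs, and reads may be shared between them. Rsph9, another head subunit, was at 43.6 CPM in sST2-KO replicate 2 and 2.63 to 6.73 CPM in the others, and it overlaps Mrps18a. Rsph14 had 354 counts in sST2-KO replicate 2 and no more than 2 elsewhere. Rsph10b was at 71.2 CPM in sST2-KO replicate 2, or 33.1 times the highest other library; it overlaps Pms2 on the same strand. Cfap206, known from Tetrahymena to dock a spoke to its doublet, had 1614 counts in sST2-KO replicate 2 and a single count in the 5 others together, in WT replicate 3. Cfap61 and Cfap91, which belong to the base of the spokes, were at 2.34 and 7.16 CPM per kb in sST2-KO replicate 2.

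All 8 central apparatus genes passed the 10-fold limit. Cfap65, a protein of the central pair projections, had 6788 counts (336 CPM) in sST2-KO replicate 2 and 0 counts in each of the other 5 libraries, at least 1404-fold higher than the 3-count limit. It was the largest ratio among the 70 genes. The other 6 central apparatus genes beside Cfap69 ranged from 0.764 CPM per kb (Cfap47) to 9.34 CPM per kb (Cfap70) in sST2-KO replicate 2. Cfap69 had 1764 counts in sST2-KO replicate 2, against 7 and 18 counts in sST2-KO replicates 1 and 3 and 34, 4 and 54 counts in the WT libraries. The group had a median of 7.74 CPM per kb in sST2-KO replicate 2 and 0.0322 CPM per kb in the other libraries.

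Proteins inside the doublet microtubules included both classes. Tektins form filaments along the wall where the doublet's tubules meet. Tekt1 had 1066 counts in sST2-KO replicate 2, against 5 and 3 counts in sST2-KO replicates 1 and 3 and 3, 0 and 1 counts in the WT libraries. Tekt4 had 862 counts in sST2-KO replicate 2 and 0 in every other library, at least 178-fold higher than the 3-count limit. Tekt2 was already present in every aorta, with 307 counts in sST2-KO replicate 2, against 37 and 79 counts in sST2-KO replicates 1 and 3 and 46, 26 and 48 counts in the WT libraries. Tekt3 had 87 counts in sST2-KO replicate 2 and 0 to 3 elsewhere. Tekt5, known mainly from sperm flagella, had 5 counts in sST2-KO replicate 2 and 2 in sST2-KO replicate 1, and none elsewhere.

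The tektins of the airway axoneme and the sperm form therefore lay on different sides of the 1 CPM limit. Cfap126 was the highest of the group per length, at 56.0 CPM per kb in sST2-KO replicate 2 and 0.899 CPM per kb in the median of the other libraries. Cfap52, also within the doublet, had 976 counts in sST2-KO replicate 2, against 3 and 1 counts in sST2-KO replicates 1 and 3 and 0, 9 and 0 counts in the WT libraries. Cfap45, Cfap53, Cfap77 and Cfap161, further proteins of the doublet lumen, lay close together at 8.42 to 11.1 CPM per kb in sST2-KO replicate 2. Cfap20, which seals the inner junction of the doublet and is also found in primary cilia, was at 72.9 CPM in sST2-KO replicate 2, against 35.6 and 25.1 CPM in sST2-KO replicates 1 and 3 and 26.4, 32.9 and 29.1 CPM in the WT libraries.

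The 5 genes of tethers and adaptors, which hold the inner arms to the doublets, all passed the 10-fold limit. Cfap43, part of the tether of an inner arm, had 5349 counts in sST2-KO replicate 2, against 50 and 33 counts in sST2-KO replicates 1 and 3 and 52, 54 and 56 counts in the WT libraries. It overlaps Gsto1 on the opposite strand, whose count was 25196 in sST2-KO replicate 2 and at least 344 elsewhere. Cfap100, of a complex that modifies the inner arms, had 1999 counts in sST2-KO replicate 2, against 16 and 26 counts in sST2-KO replicates 1 and 3 and 27, 15 and 32 counts in the WT libraries. The remaining tether and adaptor genes Cfap44, Cfap57 and Cfap73 were at 5.97 to 9.33 CPM per kb in sST2-KO replicate 2. The 2 genes of dynein arm assembly, which work in the cytoplasm before arms reach the cilium, were aorta-expressed and under the limit. Cfap298 was at 22.3 CPM in sST2-KO replicate 2 and 1.75 to 6.31 CPM in the others, and Cfap300 at 12.2 CPM in sST2-KO replicate 2 and 1.13 to 2.59 CPM in the others.

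**Figure D3:**
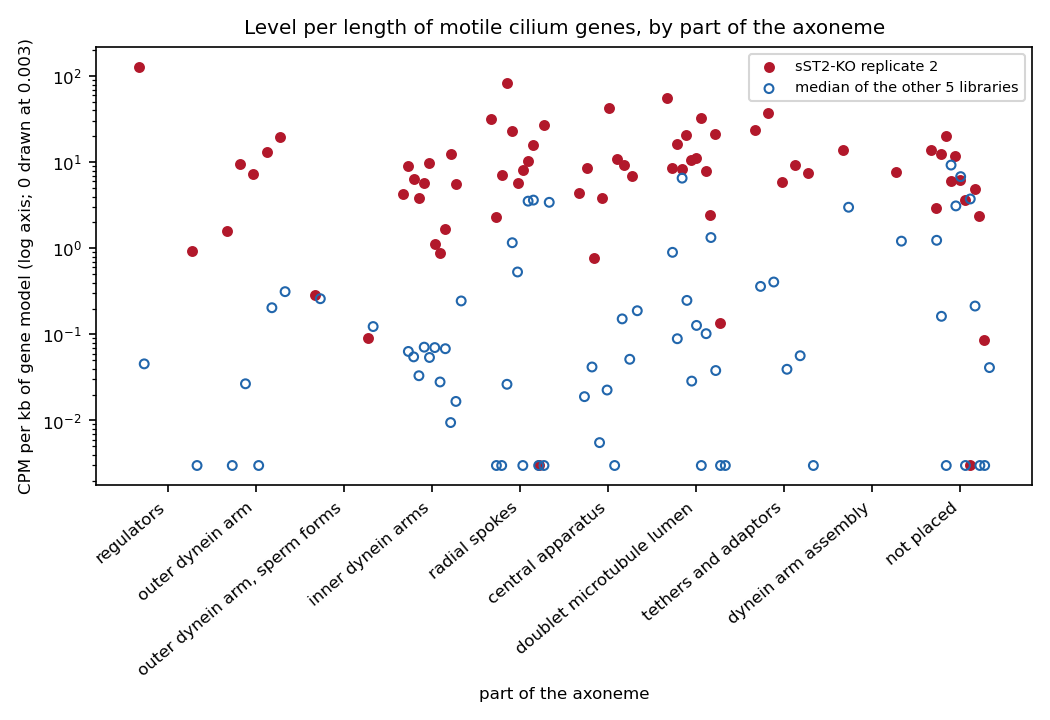
CPM per kb of gene model (log axis, 0 drawn at 0.003) of each gene in sST2-KO replicate 2 (filled red) and in the median of the other 5 libraries (open blue), grouped by the part of the axoneme its protein belongs to. Red and blue separate in the outer arms, inner arms, central apparatus and tethers, and coincide for the sperm forms of the outer arm; the genes not placed in a part of the axoneme include several with similar red and blue levels.

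Several of the highest levels per kb in the other aortas belonged to Cfap genes not placed in the axoneme here. Cfap36, a small ciliary protein that binds ARL3, was at 54.7 CPM in sST2-KO replicate 2, against 26.8 and 26.4 CPM in sST2-KO replicates 1 and 3 and 25.0, 23.4 and 25.5 CPM in the WT libraries. Cfap418, known from the connecting cilium of human photoreceptors, was at 28.0 CPM in sST2-KO replicate 2 and 13.8 to 24.7 CPM in the others. Cfap410, a basal body protein, was at 40.6 CPM in sST2-KO replicate 2 and 11.8 to 25.9 CPM in the others. Cfap97 was at 18.7 CPM in sST2-KO replicate 2, against 16.5 and 13.4 CPM in sST2-KO replicates 1 and 3 and 21.3, 26.3 and 19.3 CPM in the WT libraries. Of these, Cfap97 alone did not exceed every other library; it overlaps Snx25 on the opposite strand. Cfap157, a basal body protein, was at 24.4 CPM in sST2-KO replicate 2 and 1.32 to 4.86 CPM in the others.

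Counts of the low-aorta genes were spread thinly over the other libraries. Of the 41 genes, 7 had no count in any other library, and 15 had at most 3 counts in any of them; the 7 included Cfap58, Cfap61, Cfap97d2 and Cfap299 beside Cfap65, Mcidas and Tekt4. Cfap58, Cfap61, Cfap97d2 and Cfap299 had 435, 501, 469 and 363 counts in sST2-KO replicate 2. Cfap99 had 101 counts in sST2-KO replicate 2 and 12 in sST2-KO replicate 1, with none elsewhere, and Cfap20dc had 195 counts in sST2-KO replicate 2 and 3 to 17 elsewhere. Cfap97d1 had no count in sST2-KO replicate 2 and 11 in WT replicate 2, its highest value. A count above 0 was found for 25 and 24 of the 41 genes in sST2-KO replicates 1 and 3 and for 24, 18 and 27 in WT replicates 1 to 3. Dnah14 was the exception within the class: it had 29 counts in sST2-KO replicate 2, against 12 and 1 counts in sST2-KO replicates 1 and 3 and 11, 12 and 29 counts in the WT libraries. It also overlaps Lbr. In all, 29 of the 70 genes overlapped another gene with at least 10 counts, 17 of them a protein-coding one.

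Genes of the same structures with other names, taken from lists of textbook membership, were counted in the same way. Of 15 genes of outer arm docking and the dynein regulatory complex, 10 passed the 10-fold limit in sST2-KO replicate 2, with a median ratio of 43.9. Ccdc40, a ruler protein that spaces the arms, was at 106 CPM in sST2-KO replicate 2 and no higher than 0.358 CPM elsewhere. Of 19 other central apparatus and spoke genes, 12 passed, with a median ratio of 24.2. Hydin, a giant protein of the central pair, was at 92.9 CPM in sST2-KO replicate 2 and no higher than 1.19 CPM elsewhere. Of 11 further doublet inner proteins 6 passed, and of 17 assembly factors 7, with median ratios of 13.8 and 2.64. Zmynd10, an assembly factor, was at 39.2 CPM in sST2-KO replicate 2 and no higher than 0.221 CPM elsewhere.

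Dynein light chains, some of which also serve cytoplasmic dynein, passed in 2 of 11 cases, with a median ratio of 0.92. Those 2 were Dnali1 and Dynlrb2. Dynlrb2 was at 93.9 CPM in sST2-KO replicate 2 and no higher than 0.119 CPM elsewhere. Of the 15 genes of the multiciliated programme 4 passed; Trp73, which acts upstream of Foxj1, was at 28.6 CPM in sST2-KO replicate 2 and no higher than 0.2 CPM elsewhere. Other markers of airway multiciliated cells, a list that also holds Dynlrb2, passed in 13 of 15 cases, with a median ratio of 153.6. Sec14l3, from the same list, was at 760 CPM in sST2-KO replicate 2 and no higher than 0.478 CPM elsewhere.

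The machinery that primary and motile cilia share was expressed in every aorta. None of 31 genes of intraflagellar transport and the BBSome passed the 10-fold limit. All 31 belonged to the aorta-expressed class, and 26 were higher in sST2-KO replicate 2 than in every other library. The share of all genes that were highest in that library was not computed, and nothing is read from the 26. The summed level of the 31 genes was 1186 CPM in sST2-KO replicate 2, against 503 and 511 CPM in sST2-KO replicates 1 and 3 and 531, 619.5 and 524.5 CPM in the WT libraries. Ift172, a transport subunit, was at 101.7 CPM in sST2-KO replicate 2 and 25.1 to 40.6 CPM in the others. Among 20 genes of primary cilium signalling the median ratio was 0.887 and 1 passed; their sum of 882.8 CPM in sST2-KO replicate 2 lay within the 622.5 to 1012 CPM of the others.

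**Figure D4:**
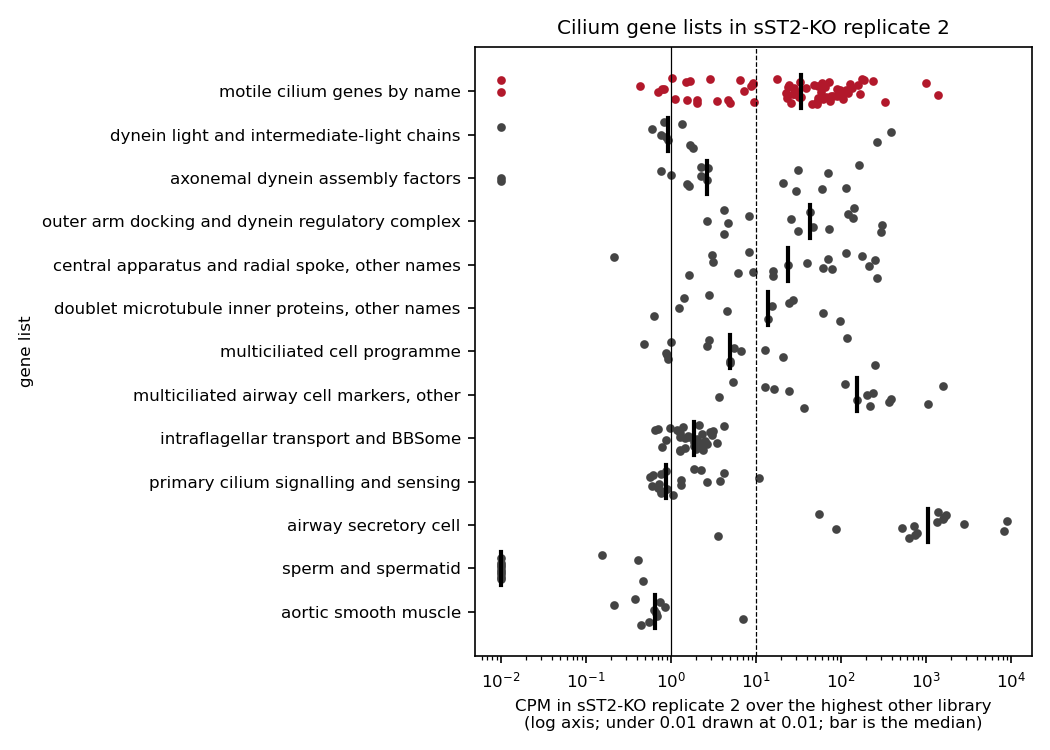
Ratio of the CPM in sST2-KO replicate 2 to the highest other library (log axis, values under 0.01 drawn at 0.01) for each gene of the named set (red) and of the other lists (grey), with the median of each list as a bar. The solid line marks 1 and the dashed line 10. Lists of motile parts and airway markers reach far beyond the dashed line, whereas intraflagellar transport lies just above the solid line with a median of 1.86 and primary cilium signalling just below it with 0.887.

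Markers of other airway epithelial cells moved with the cilium genes. The sum of 16 secretory cell markers, led by Bpifa1 and Scgb1a1, was 52910 CPM in sST2-KO replicate 2, against 49.9 to 68.4 CPM in the other 5 libraries. Of these 16 markers, 15 passed the 10-fold limit. The 14 pan-epithelial markers summed to 2277 CPM in sST2-KO replicate 2 and 18.3 to 84.9 CPM in the others. Their part in the cilium gene levels was not tested, and in bulk tissue more cells of a type and more RNA per cell cannot be told apart.

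Promoter sequence was examined because regulatory factor X (RFX) proteins act with FOXJ1 on cilium genes, through a pair of inverted half-sites called the X-box. Windows of 300 bases, from 250 before to 50 after the start, were found for 54 of the 70 genes in RefSeq, build GRCm38.p6, whereas the counts refer to mm39. The X-box was searched on both strands as GTNNCC followed, after 0 to 3 bases, by GGNAAC. The windows of 3 low-aorta genes (Cfap206, Tekt4 and Cfap58) and of 1 aorta-expressed gene (Cfap298) are printed to show such pairs in both classes, with the pair in capitals.
Cfap206 (chr4:34730157-34730456, minus strand): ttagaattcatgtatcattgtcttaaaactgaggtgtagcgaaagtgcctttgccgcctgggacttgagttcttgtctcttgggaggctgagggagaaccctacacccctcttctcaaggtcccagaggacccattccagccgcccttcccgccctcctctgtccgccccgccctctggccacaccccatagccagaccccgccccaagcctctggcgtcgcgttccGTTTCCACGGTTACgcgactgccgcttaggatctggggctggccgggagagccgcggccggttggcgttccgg
Tekt4 (chr17:25471340-25471639, plus strand): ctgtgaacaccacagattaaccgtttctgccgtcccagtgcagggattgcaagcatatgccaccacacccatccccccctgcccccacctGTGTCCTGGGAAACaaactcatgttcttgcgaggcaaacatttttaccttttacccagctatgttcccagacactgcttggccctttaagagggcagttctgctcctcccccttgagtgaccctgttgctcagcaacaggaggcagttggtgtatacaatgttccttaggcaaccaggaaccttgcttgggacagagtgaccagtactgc
Cfap58 (chr19:47937462-47937761, plus strand): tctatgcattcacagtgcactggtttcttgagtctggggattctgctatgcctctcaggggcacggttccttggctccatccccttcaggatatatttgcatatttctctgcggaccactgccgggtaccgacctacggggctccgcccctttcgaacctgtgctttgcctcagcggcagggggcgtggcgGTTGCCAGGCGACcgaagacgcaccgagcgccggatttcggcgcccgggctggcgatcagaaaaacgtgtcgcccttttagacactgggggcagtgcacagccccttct
Cfap298 (chr16:90934800-90935099, minus strand): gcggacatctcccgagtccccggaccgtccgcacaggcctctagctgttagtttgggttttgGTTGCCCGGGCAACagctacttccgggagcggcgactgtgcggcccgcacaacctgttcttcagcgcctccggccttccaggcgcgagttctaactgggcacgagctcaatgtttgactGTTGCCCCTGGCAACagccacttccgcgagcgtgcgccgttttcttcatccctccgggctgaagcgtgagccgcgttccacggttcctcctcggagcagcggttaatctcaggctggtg

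Some genes had several windows, and a gene counted if any of them matched. The pair was found in 5 of 54 motile cilium genes with a window (9.26%), against 498 of 17492 protein-coding genes (2.85%). By class it was found in 4 of 31 low-aorta genes (12.9%) and 1 of 20 aorta-expressed genes (5.0%), Cfap298, whose window held 2 pairs. The half-site GTTGCC alone, which overlaps some of these pairs, was found in 21 of 54 genes (38.9%), against 14.3% of all. It was found in 12 of 31 genes (38.7%) and 9 of 20 genes (45%) of the same classes. The forkhead core GTAAACA was found in 4 of 54 genes (7.41%), against 3.45% of all. It was found in 1 of 31 low-aorta genes (3.23%) and 3 of 20 aorta-expressed genes (15%). Among the other motile cilium lists, 18 of 79 genes held the pair (22.8%), and among intraflagellar transport and the BBSome 6 of 28 (21.4%). A match is a description of these letters and not of binding.

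The comparison the study set up was sST2-KO against WT. With all 6 libraries, edgeR's quasi-likelihood test on 16377 genes called none at an adjusted p of 0.05 (0%), and 1806 genes (11%) were at an unadjusted p under 0.05. DESeq2 called 291 genes and limma-voom none. Of the 70 motile cilium genes, 33 had enough counts in enough libraries to be tested; of the 37 others, 34 belonged to the low-aorta class, among them Foxj1 and Cfap65, so the tested genes are not the whole set. Of those 33, 29 had positive and 4 negative log2 changes, with a median of 2.33 against 0.04 over all tested genes. An unadjusted p under 0.05 was reached by 15 (45.45%), and none of the 33 was called by any of the 3 tools. DESeq2 ran with its default outlier filter, and any gene it left without a p-value counted as not called. These values come from the contrast on which the set was chosen and are given as a description.

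Rsph1 averaged 38.8 ± 65.6 CPM in sST2-KO libraries and 1.76 ± 0.157 CPM in WT libraries (SD, n = 3 each), and its log2 change by edgeR was 4.46 (SE 1.86). Foxj1 averaged 112 ± 194 CPM in sST2-KO libraries and 0.113 ± 0.110 CPM in WT libraries (SD, n = 3 each). In both genes the SD of the sST2-KO libraries exceeded their mean, with 1 library high.

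Without sST2-KO replicate 2, the comparison rested on sST2-KO replicates 1 and 3 and the 3 WT libraries. The airway readings behind the set came from the library left out, but earlier results of all 6 libraries were known and the classes use the median of these 5. edgeR called 1 of 16844 genes (0.00594%), the predicted gene Gm45104, and 2149 genes (12.8%) were at an unadjusted p under 0.05. The same 33 motile cilium genes were tested. None was called, 17 had positive and 16 negative log2 changes between -1.50 and 1.19, and 1 (3.03%) was at an unadjusted p under 0.05. Their median log2 change was 0.04, against -0.02 over all tested genes, and their median SE was 0.569. The sign of that median depended on the setting, with values between -0.21 and 0.06. No motile cilium gene was at an unadjusted p under 0.05 both with and without sST2-KO replicate 2.

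The gene below that limit was Cfap97, a protein named for cilia and flagella. It averaged 14.99 ± 2.19 CPM in sST2-KO replicates 1 and 3 (SD, n = 2) and 22.3 ± 3.60 CPM in WT libraries (SD, n = 3), with a log2 change of -0.57 (SE 0.22, edgeR unadjusted p = 0.0396, adjusted p = 0.371). The groups did not overlap, as was so for 35.9% of all tested genes, and the difference missed the adjusted threshold. Cfap410 followed at 0.68 (SE 0.29, edgeR adjusted p = 0.397). Dnai4 was at -1.17 on that scale (SE 0.56), without passing (edgeR adjusted p = 0.429), and Rsph3b was at 0.49 (SE 0.26, edgeR adjusted p = 0.465). The Rsph3b value was 0.79 without sST2-KO replicate 1 and 0.12 without sST2-KO replicate 3. Cfap36 had the smallest SE of these genes, 0.17, around a log2 change of 0.11.

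Among the 26 aorta-expressed genes, 13 were higher and 13 lower in sST2-KO replicates 1 and 3, with a median log2 change of -0.02. The libraries of the genotypes did not overlap for 8 of them (30.77%), against 35.9% of all tested genes. Cfap298, Cfap36, Cfap410 and Rsph3b were higher, and Cfap43, Cfap97, Dnai4 and Rsph1 lower, in both sST2-KO libraries. This share was near that of the whole table. No difference between genotypes was detectable for these genes at this depth and number of libraries.

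**Figure D5:**
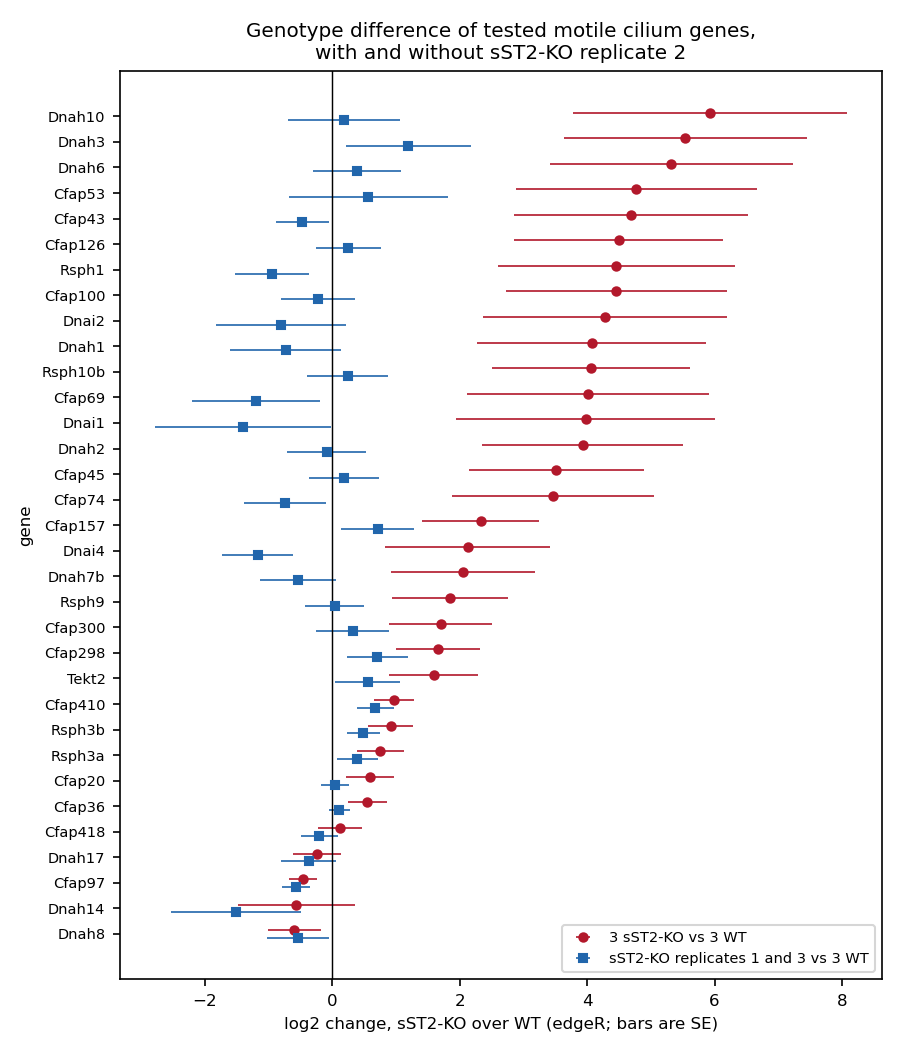
Log2 change, sST2-KO over WT, of the 33 tested motile cilium genes by edgeR, with bars for the SE, in the comparison of all 6 libraries (red circles) and without sST2-KO replicate 2 (blue squares). Red circles reach beyond 5 with wide bars, whereas blue squares lie on both sides of 0 between -1.50 and 1.19.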

How the data were processed

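The authors deposited raw counts per gene for the 6 libraries in 1 table, with gene coordinates and lengths. Per the labels' protocols, poly-T captured RNA was primed with random hexamers and amplified by PCR, with no strand-marking step described; the build was mm39, per the submitters' processing notes, which name no counting tool or strand setting. Members were found by name and protein-coding biotype. Members, lists, classes, axoneme roles and motifs were chosen with earlier results of these data known. Named genes were Foxj1, Mcidas, all Dnah, Dnai, Rsph and Tekt genes, the 10 highest Cfap genes per kb in sST2-KO replicate 2 and in the other libraries, genes nearest the limits, the 4 lowest p-values and up to 4 genes per list; the other Cfap genes and list genes such as Hydin, Zmynd10 and Ift172 were named after their values were seen. edgeR 4.0.16 (R 4.3.3) filtered genes (minimum count 10, total 15), scaled by TMM and fitted quasi-likelihood models with Benjamini-Hochberg adjustment over all tested genes; DESeq2 1.42.0 and limma-voom 3.58.1 were alternatives. The fit was tested on simulated data. CPM per kb used the deposited gene length. Every pair of libraries differed by more than sampling noise.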

Additional observations from a re-analysis of the deposited data

How the results depend on the processing

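No motile cilium gene was called in either comparison of genotypes under any alternative run (other scalings and filters, DESeq2, limma-voom, protein-coding genes only, a threshold of 0.1, the replicate block, leaving out each library). For DESeq2 this includes any gene its default outlier filter left without a p-value. Over all genes, the comparison of 6 libraries called 0 with edgeR and 291 with DESeq2, and 0 to 1 when 1 library was left out, the 1 call being without sST2-KO replicate 2. Without sST2-KO replicate 2, the 1 call became 0 with a total-count filter, with limma-voom and with protein-coding genes only, 439 with DESeq2, 104 with the replicate block, and 0 to 112 when a further library was left out, the 112 being without WT replicate 2; leaving out an sST2-KO library there leaves 1, assumed to vary like the others. The cause was not tested. Replicate numbers were taken as names only. Deviations of log2 CPM from the group mean, correlated between same-numbered libraries of the 2 genotypes, gave r of 0.145, 0.0461 and -0.0867. Differently numbered pairs gave r of -0.119 to 0.0452. The 15 motile cilium genes at an unadjusted p under 0.05 with all 6 libraries became 2 with the replicate block, 1 with limma-voom, 7 with DESeq2, 31 with the total-count filter, and 0 to 29 when 1 library was left out: 1 without WT replicate 1, 0 without WT replicate 2 or 3, 29 without sST2-KO replicate 1, 1 without sST2-KO replicate 2 and 28 without sST2-KO replicate 3. Without sST2-KO replicate 2, that count of 1 became 2 with RLE size factors or limma-voom and 0 to 4 when a further library was left out (0 without WT replicate 2, 2 without WT replicate 3, 4 without sST2-KO replicate 1). There the median log2 change of the motile cilium genes, 0.04, was -0.19 with the total-count filter, -0.03 with a filter of 1 CPM in 2 libraries, -0.10 with the replicate block, and -0.21 to 0.03 when a further library was left out, negative without WT replicate 2 (-0.10), sST2-KO replicate 1 (-0.05) or sST2-KO replicate 3 (-0.21). Rsph3b, at 0.49, was 0.12 to 0.79 when a further library was left out. The low-aorta class of 41 genes became 34 at a limit of 0.5 CPM, 52 at 2 CPM and 49 at 0.5 CPM per kb. The aorta-expressed class of 26 genes became 33, 14 and 15 at the same limits. The low class of 3 became 4 at 2 CPM and 6 at 0.5 CPM per kb. The summed ratio of 187.1 became 237.7 with CPM per kb. Depth limited levels under 0.239 CPM, and 37 of 70 genes could not be tested between genotypes.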

Other observations

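Among other epithelial lists, the basal cell list was high in sST2-KO replicate 2. In the gland, alveolar and rare cell lists only 2 or 3 genes passed the 10-fold limit. Krt5, a keratin of basal cells, was at 99.0 CPM there and no higher than 0.625 CPM elsewhere, and 10 basal cell markers summed to 778 CPM in sST2-KO replicate 2 and 69.5 to 154.8 CPM in the others. Of the 10 basal cell markers, 5 passed the 10-fold limit, with a median ratio of 19.2. The 9 airway gland markers had a median ratio of 0.323, with 3 past the limit and 4 at 0 counts in sST2-KO replicate 2. Ltf, the lactoferrin of glands and neutrophils, was at 2074 CPM in sST2-KO replicate 2 and no higher than 22.4 CPM elsewhere, and made up most of that list's sum of 2371 CPM. The 10 alveolar markers had a median ratio of 0.731, with 2 past the limit, and the 10 tuft, ionocyte and neuroendocrine markers one of 3.64, with 2 past it. Nkx2-1, a transcription factor of lung and thyroid, was at 61.7 CPM in sST2-KO replicate 2 and had 0 counts elsewhere, at least 257.9-fold higher than the 3-count limit. It was the only 1 of 8 thyroid markers past the 10-fold limit, and the median ratio of that list was 0.72. Aqp4 and Sox2, which ependyma shares with airway epithelium, were at 90.4 and 90.1 CPM in sST2-KO replicate 2 and no higher than 0.119 and 0.718 CPM elsewhere. They came from a list of 9 ependyma and choroid plexus markers, of which 3 passed, with a median ratio of 1.04. That list summed to 2650 CPM in sST2-KO replicate 2, within the 2495 to 4244 CPM of the others. It includes Vim, and Ttr, which is also among the hepatocyte markers. Its sum was high in every aorta and does not separate ependyma from aorta. Red cell markers went the other way, with a sum of 60.5 CPM in sST2-KO replicate 2 and 641 to 4771 CPM in the others.

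Within the 41 low-aorta genes, Spearman's rho between gene length and CPM in sST2-KO replicate 2 was 0.334, and rho between that CPM and the median of the other 5 libraries was 0.294, both across genes of 1 library, which are not independent replicates.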
